A study of Mus musculus with 9 samples.

Results

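Circadian clock genes were examined in brain RNA of mice with intracerebral hemorrhage (ICH). They were 10 of the 38621 genes with RPKM values, chosen by name: Per1, Per2, Per3, Nr1d1, Nr1d2, Dbp, Arntl, Ciart, Tef, and Bhlhe41. All 10 were measured, and all 10 passed the filter on low values. RPKM is the number of reads on the exons of a gene divided by exon length and by the total of reads on genes. There were 3 groups of 3 C57BL/6 mice, which the study describes as male and kept under a daily light and dark cycle. The sham mice are labelled untreated, and the study states that they were injected with saline. The ICH mice were injected with 30 µl of their own blood in the brain. The feb mice received the same blood after febuxostat, a xanthine oxidase inhibitor, had been given by gavage at 50 mg/kg once daily for 5 days. The hour of the day at which tissue was taken, the part of the brain, and the time after injection of these RNA samples are not given in the sources used here. Sham and ICH mice are not said to have been gavaged with vehicle, so the drug and the gavage cannot be told apart.

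The circadian clock is a feedback loop of transcription that runs in most cells. ARNTL (also called BMAL1) and CLOCK bind together to the E-box, the letters CACGTG, and activate the Per and Cry genes, whose proteins then hold ARNTL and CLOCK back. NR1D1 and NR1D2 (REV-ERBα and REV-ERBβ) repress Arntl in a second loop, CIART and BHLHE41 also repress E-box genes, and DBP and TEF act on the D-box of output genes. In brain and other tissues the RNA of Arntl peaks at about the opposite time of day to that of Dbp and Nr1d1, while Per1 and Per2 also respond quickly to stimuli, including neuronal activity and glucocorticoids.

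The sequences before the starts of these genes were read from RefSeq (GRCm38.p6) to show where the letters bound by these proteins lie. A window of 250 bases before each start was searched on both strands for the E-box CACGTG, the D-box as TTATGTAA or TTACGTAA, the core TAGGTCA bound by NR1D and ROR proteins, and the cAMP response element TGACGTCA. Sequences matched 9 of the 10 genes, with 12 starts, and Per2 had none. The E-box was found in 4 of the 9 genes, Per1, Ciart, Tef, and Bhlhe41, while 6.86% of 27025 genes with a window held one. The D-box was found in Per3 alone among the 9, while 1.10% of all genes held one. TAGGTCA and TGACGTCA were found in 0 of the 9, against 2.55% and 1.77% of all genes. A match is a description of the letters and not a measured binding site. The stretches below hold the matches in capitals and stop where an exon of the deposited annotation begins.

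The Ciart stretch (chr3:95882252-95882478, minus strand) lies before the gene and holds 3 E-boxes, whose first bases are 116, 58, and 44 bases before the start. The Per1 stretch (chr11:69098699-69098947, plus strand) lies within the span of the gene before one of its starts and outside its exons, with an E-box 166 bases before that start. The Tef stretch (chr15:81811164-81811413, plus strand) lies likewise within the gene and outside its exons, with an E-box 138 bases before the start. The Bhlhe41 stretch (chr6:145865559-145865670, minus strand) lies before the gene, with an E-box 153 bases before the start used by RefSeq. The Per3 stretch (chr4:151044666-151044915, minus strand) lies before the gene and holds a pair of D-boxes, 205 and 158 bases before the start. In none of these 5 stretches do the capitals of different matches overlap.
Ciart: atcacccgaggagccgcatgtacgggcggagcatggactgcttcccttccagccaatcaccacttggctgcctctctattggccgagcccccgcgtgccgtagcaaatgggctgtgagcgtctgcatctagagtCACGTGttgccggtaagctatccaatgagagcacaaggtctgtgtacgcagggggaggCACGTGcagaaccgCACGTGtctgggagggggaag
Per1: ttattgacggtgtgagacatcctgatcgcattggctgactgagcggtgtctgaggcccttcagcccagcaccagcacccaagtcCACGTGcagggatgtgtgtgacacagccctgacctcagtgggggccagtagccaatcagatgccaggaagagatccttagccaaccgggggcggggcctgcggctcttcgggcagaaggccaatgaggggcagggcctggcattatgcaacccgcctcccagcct
Tef: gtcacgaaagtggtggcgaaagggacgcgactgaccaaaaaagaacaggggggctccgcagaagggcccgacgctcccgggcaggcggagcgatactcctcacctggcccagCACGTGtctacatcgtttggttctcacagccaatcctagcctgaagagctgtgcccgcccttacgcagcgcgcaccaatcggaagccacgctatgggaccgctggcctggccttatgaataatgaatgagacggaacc
Bhlhe41: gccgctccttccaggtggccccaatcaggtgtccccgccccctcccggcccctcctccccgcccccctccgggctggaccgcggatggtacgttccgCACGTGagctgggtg
Per3: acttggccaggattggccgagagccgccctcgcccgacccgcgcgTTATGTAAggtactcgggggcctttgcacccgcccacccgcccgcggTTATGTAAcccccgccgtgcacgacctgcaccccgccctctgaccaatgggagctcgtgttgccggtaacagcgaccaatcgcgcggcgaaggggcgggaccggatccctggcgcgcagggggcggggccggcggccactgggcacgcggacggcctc

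Between 23065757 and 29538009 reads were counted on genes per mouse, and every clock gene had at least 268 reads in every mouse. Libraries of the same group differed beyond counting noise, so none was taken for a copy of another. Markers of neurons of all kinds were present in every mouse, with a summed level of 369 to 447 RPKM over 4 genes, as fits tissue labelled brain. Groups were compared with limma on log2(RPKM + 0.1) over 29025 genes, with all 9 mice in the fit, and p-values were adjusted over those genes by the Benjamini-Hochberg method. A gene was called when its unadjusted p was under 0.05 and its fold change over 2, the thresholds in the methods. The labels give only replicate numbers, while the study states 3 mice per group for these data, so each sample was taken as a separate mouse. The p-values measure the spread between these samples. In bulk tissue, fewer cells of a type and less RNA per cell cannot be told apart.

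None of the 10 clock genes was called in any of the 3 comparisons, and none had an adjusted p under 0.05 in limma. With ICH, Per1, Per2, Nr1d1, and Tef were higher than in sham mice at an unadjusted p under 0.05, by 1.14-fold to 1.61-fold, and for each of these 4 genes every ICH mouse lay above every sham mouse. Between feb and ICH mice 0 of 10 reached an unadjusted p of 0.05. Between feb and sham mice Per2 alone reached it, 1.43-fold higher. Per2 was the clock gene with the smallest p among the 3 groups.

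For ICH against sham, 2.53% of all genes tested were called, 12.3% had an unadjusted p under 0.05, 0.0241% had an adjusted p under 0.05, and 19.4% did not overlap between the groups. The clock genes stood at 0 of 10, 4 of 10, 0 of 10, and 4 of 10. For feb against ICH, the shares of all genes were 2.43%, 11.1%, 0.00689%, and 17.2%, and those of the clock genes 0, 0, 0, and 1 of 10. For feb against sham, they were 2.20%, 8.54%, 0.00345%, and 12.7%, and 0, 1, 0, and 2 of 10. The count of clock genes called stayed at 0 of 10 under every processing, which for only 10 genes is near the share of all genes. The called share of all genes moved with the processing. The counts behind it were 735, 706, and 639 genes in the 3 comparisons, and 158, 128, and 91 with a pseudocount of 1. They were 346, 287, and 263 among genes that reached 1 RPKM in at least 3 mice, where fewer genes were tested. Without sham replicate 2, 1299 genes were called for ICH against sham and 1150 for feb against sham, and without feb replicate 2 the latter count was 1030. The median log2 difference of the 10 clock genes was 0.13 for ICH against sham, -0.08 for feb against ICH, and 0.20 for feb against sham, and the medians of all genes tested were 0.08, -0.01, and 0.05. When the samples were scaled to equal medians, the median of all genes moved to -0.03, -0.02, and -0.06, and Nr1d1 and Tef no longer reached an unadjusted p of 0.05 for ICH against sham. The comparisons share their groups and are not independent of each other.

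**Figure D1:**
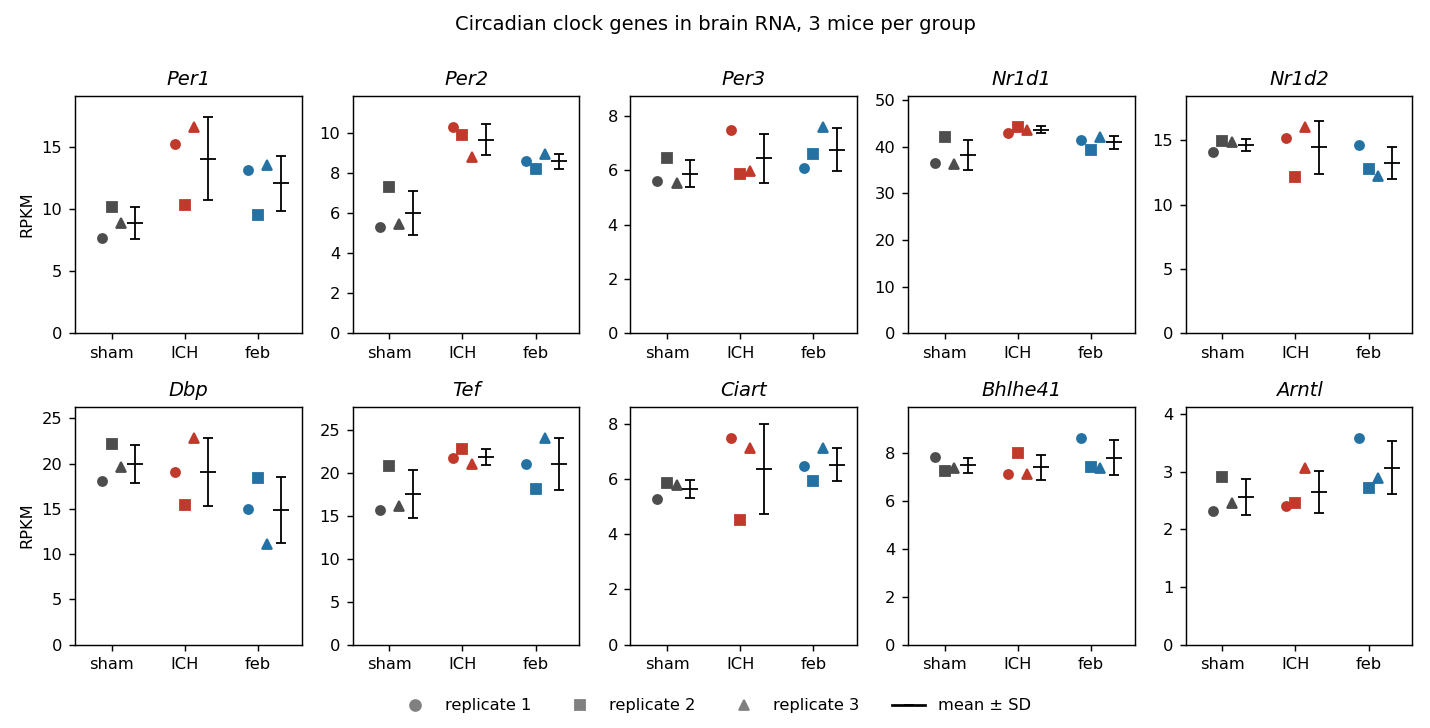
RPKM (vertical axes, from 0) of the 10 clock genes in the 3 groups, with 1 point per mouse, its shape giving the replicate number, and the mean ± SD of each group in black. Per2 shows the 3 sham mice below all 6 other mice, and Arntl has the lowest level, under 3.6 RPKM in every mouse.

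**Figure D2:**
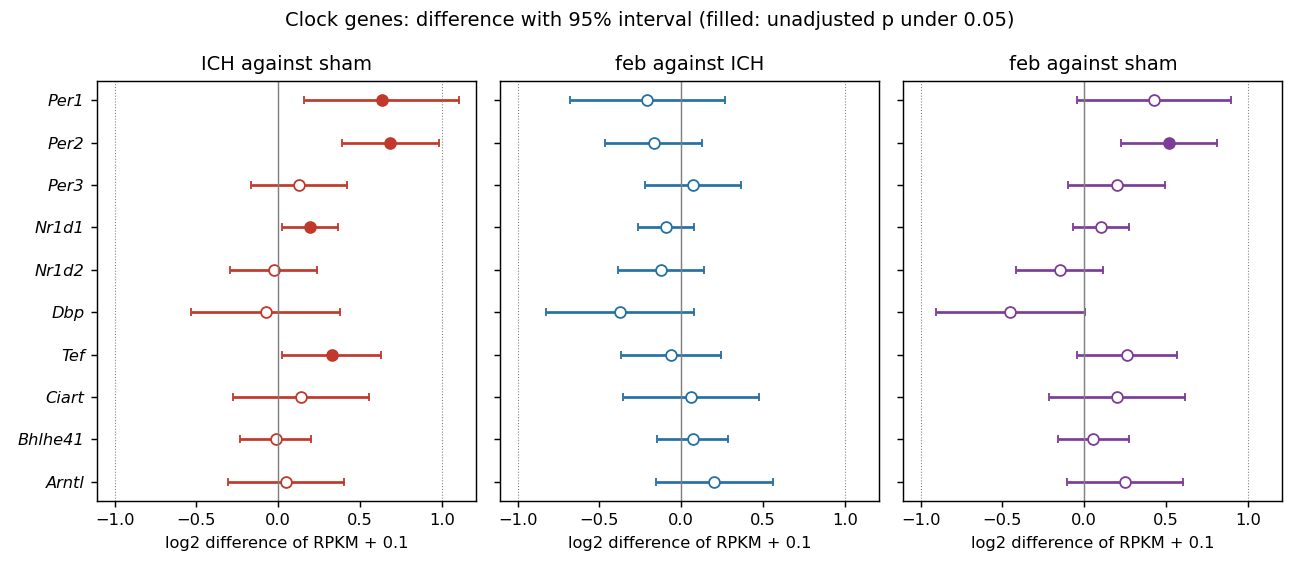
Log2 differences of RPKM + 0.1 between groups for each clock gene with 95% intervals from limma, filled where the unadjusted p is under 0.05, with dotted lines at a 2-fold difference. Every estimate lies within 2-fold, 4 are filled for ICH against sham, 0 for feb against ICH, and 1 for feb against sham.

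The Per genes encode the PERIOD proteins of the negative arm of the loop. Per2 (chr1:91415982-91459324, minus strand) was at 5.30, 7.28, and 5.47 RPKM among sham mice, 10.3, 9.89, and 8.78 among ICH mice, and 8.57, 8.21, and 8.93 among feb mice. The sham mice were below all other mice, while the ICH and feb mice overlapped. Its log2 difference was 0.69 for ICH against sham (standard error 0.13, limma adjusted p = 0.274) and 0.52 for feb against sham (standard error 0.13, adjusted p = 0.565). The difference of feb from ICH mice was -0.17, with a 95% interval of -0.46 to 0.13. Per2 kept an unadjusted p under 0.05 for ICH against sham and for feb against sham in all 19 alternatives run, and its adjusted p for ICH against sham was under 0.05 in 1 of them, without sham replicate 2 (0.0326).

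Per1 (chr11:69095217-69109960, plus strand) was at 7.67, 10.2, and 8.90 RPKM among sham mice, 15.3, 10.3, and 16.7 among ICH mice, and 13.2, 9.54, and 13.5 among feb mice. ICH replicate 2 stood just above the highest sham mouse, and feb replicate 2 lay among the sham mice. For ICH against sham the log2 difference was 0.63 (standard error 0.21, limma adjusted p = 0.352). Its unadjusted p was under 0.05 in 17 of 19 alternatives, but not without sham replicate 1 or without ICH replicate 3. Against sham mice, feb mice differed by 0.43, with an interval of -0.05 to 0.90, and for feb against ICH -0.21, with an interval of -0.68 to 0.27.

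Per3 (chr4:151003652-151044665, minus strand) had the smallest differences of the Per genes for ICH against sham. It was at 5.62, 6.44, and 5.55 RPKM for sham, 7.47, 5.87, and 5.97 for ICH, and 6.07, 6.60, and 7.61 for feb mice, so that the groups overlapped. The log2 difference for ICH against sham was 0.13, with an interval of -0.17 to 0.42 (limma adjusted p = 0.683). The 3 Per genes also differed in their spread, since the SD of log2 values within groups was 0.29 for Per1 and 0.16 for both Per2 and Per3.

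Nr1d1 and Nr1d2 encode nuclear receptors that repress Arntl. Nr1d1 (chr11:98767932-98775333, minus strand) was at 36.5, 42.0, and 36.3 RPKM among sham mice, 42.9, 44.3, and 43.7 among ICH mice, and 41.5, 39.3, and 42.1 among feb mice. All ICH mice lay above all sham and all feb mice, but by little, since sham replicate 2 was near the lowest ICH mouse. The log2 difference for ICH against sham was 0.19 (standard error 0.08, limma adjusted p = 0.386), or 1.14-fold, and for feb against ICH it was -0.09 (interval -0.26 to 0.08). The ICH against sham p was under 0.05 in 10 of the 19 alternatives. Nr1d1 shares 263 bases of exon, 8.55% of its own, with Thra on the other strand, and Thra was higher still, at 106 to 160 RPKM. Whether reads were counted by strand is not given in the sources used here, so the reads of the shared bases cannot be assigned.

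Nr1d2 (chr14:18204054-18239127, minus strand) did not follow Nr1d1. It was at 14.1, 14.9, and 14.9 RPKM for sham, 15.2, 12.1, and 16.1 for ICH, and 14.6, 12.8, and 12.2 for feb mice. The ICH mice spanned the whole sham range, and the log2 difference was -0.03 for ICH against sham (interval -0.29 to 0.24) and -0.12 for feb against ICH (interval -0.39 to 0.14). Without ICH replicate 2, the log2 difference of feb against ICH was -0.24, at an unadjusted p under 0.05 in limma.

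Arntl, the activator of the loop and the target of the NR1D repressors, had the lowest level of the 10 genes. Arntl (chr7:113207465-113314126, plus strand) was at 2.31, 2.91, and 2.45 RPKM for sham, 2.41, 2.46, and 3.07 for ICH, and 3.59, 2.72, and 2.88 for feb mice, and the groups overlapped. Its log2 difference was 0.05 for ICH against sham (interval -0.31 to 0.40, limma adjusted p = 0.918). That sign was negative under equal medians (-0.06), quantile normalization (-0.07), and voom (-0.02). For feb against ICH it was 0.20 (interval -0.15 to 0.56), and for feb against sham 0.25 (interval -0.11 to 0.60).

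Dbp and Tef encode related transcription factors that act on the D-box. Dbp (chr7:45705088-45710203, plus strand) was at 18.1, 22.2, and 19.6 RPKM for sham, 19.1, 15.4, and 22.9 for ICH, and 15.0, 18.4, and 11.1 for feb mice. Feb replicates 1 and 3 were below every other mouse, and feb replicate 2 lay within the sham range. The log2 difference was -0.45 for feb against sham (interval -0.91 to 0.00, limma adjusted p = 0.587), -0.37 for feb against ICH (interval -0.83 to 0.08, adjusted p = 0.513), and -0.08 for ICH against sham (interval -0.53 to 0.38). Without feb replicate 2 the first was -0.62 and the second -0.54, both at an unadjusted p under 0.05 in limma. Across the alternatives Dbp had an unadjusted p under 0.05 for feb against sham in 6 of 19.

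Dbp shares 539 bases of exon, 18.01% of its own, with Sphk2 on the other strand. Sphk2, a kinase of sphingosine, was at 12.6, 14.2, and 13.2 RPKM for sham, 13.4, 10.7, and 14.8 for ICH, and 10.5, 12.4, and 8.61 for feb mice. Its order of mice was close to that of Dbp, with a Pearson correlation of log2 values of 0.993 over the 9 mice, a description of genes that share bases and libraries. Sphk2 had a log2 difference of -0.35 for feb against sham (standard error 0.16, limma adjusted p = 0.587). Which gene the reads on the shared bases came from was not tested.

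Tef (chr15:81802421-81826861, plus strand) was at 15.7, 20.8, and 16.2 RPKM for sham, 21.7, 22.8, and 21.1 for ICH, and 21.1, 18.1, and 24.1 for feb mice. Sham replicate 2 came close to the ICH mice, which lay above all sham mice, and the feb mice overlapped both groups. The log2 difference for ICH against sham was 0.33 (standard error 0.13, limma adjusted p = 0.391), and its p was under 0.05 in 10 of 19 alternatives. For feb against sham it was 0.26 (interval -0.04 to 0.57) and for feb against ICH -0.06 (interval -0.37 to 0.24). Tef and Dbp thus had differences of opposite sign from sham mice in both comparisons, and the difference between the genes was not tested.

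Ciart and Bhlhe41 encode repressors of E-box genes. Ciart (chr3:95878503-95882251, minus strand) was at 5.27, 5.87, and 5.79 RPKM for sham, 7.50, 4.51, and 7.13 for ICH, and 6.47, 5.94, and 7.13 for feb mice. ICH replicate 2 was the lowest mouse and ICH replicate 1 the highest, and every feb mouse was above every sham mouse. Its log2 difference was 0.20 for feb against sham (interval -0.21 to 0.62, limma adjusted p = 0.766) and 0.14 for ICH against sham (interval -0.27 to 0.56). Without ICH replicate 2, the latter was 0.37, at an unadjusted p under 0.05 in limma. Bhlhe41 was at 7.10 to 8.63 RPKM in all 9 mice, the narrowest span of the 10 genes in proportion (1.22-fold, as in Nr1d1), with log2 differences of -0.01, 0.07, and 0.06 in the 3 comparisons. Gm43909 on the other strand shares 19.1% of the exon bases of Bhlhe41 and was at 8.89 to 11.8 RPKM.

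Any difference among the 3 groups was tested by the moderated F of limma and, for each gene, by an exact permutation test over the 280 ways of parting the mice, whose smallest p is 0.00357. Per2 had a limma p of 0.00146 (adjusted p = 0.306) and an exact permutation p of 0.00714. Per1 had a limma p of 0.0391 and an exact permutation p of 0.125, and Nr1d1 had 0.0851 and 0.0429. Thus 2 of 10 clock genes reached a limma p under 0.05, as did 11.6% of all genes, 0 of 10 an adjusted p under 0.05, as against 0.00689% of all genes, and 2 of 10 an exact p of at most 0.05, as did 10.1% of all genes. For 3 mice against 3, an exact test cannot give a p under 0.1.

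The genes were ordered by their mean RPKM over the 9 mice, a level per exon length. Nr1d1 stood first at 41.0 ± 2.97 (SD, n = 9), followed by Tef at 20.2 ± 2.90, Dbp at 17.97 ± 3.69, and Nr1d2 at 14.1 ± 1.40. Per1 was at 11.7 ± 3.08, Per2 at 8.08 ± 1.76, Bhlhe41 at 7.56 ± 0.507, Per3 at 6.36 ± 0.754, Ciart at 6.18 ± 0.972, and Arntl at 2.76 ± 0.406. Of the 9 neighbouring pairs in this order, only Nr1d1 with Tef and Ciart with Arntl had ranges that did not overlap. Per1 was nevertheless above Per2 within each of the 9 mice. The SD of log2 values within groups was lowest for Nr1d1 (0.08, at the 6.76th percentile of 17661 genes with a mean of at least 1 RPKM) and highest for Per1 (0.29, at the 70.8th).

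Ratios within a mouse do not depend on how the libraries were scaled. Because Arntl and Dbp peak at different times of day, their ratio was taken in each mouse and is given as a description. Dbp over Arntl was 7.82, 7.64, and 8.00 among sham mice, 7.91, 6.25, and 7.46 among ICH mice, and 4.17, 6.76, and 3.86 among feb mice. The sham mice were close together, the ICH mice partly overlapped them, and feb replicate 2 lay among the ICH mice while the other 2 feb mice were below all others. Nr1d1 over Arntl was 15.0 ± 0.698 (SD, n = 3) for sham, 16.7 ± 2.11 for ICH, and 13.5 ± 1.70 for feb mice, with overlap between the groups. Per2 over Arntl was 2.34 ± 0.143 for sham, 3.72 ± 0.7503 for ICH, and 2.83 ± 0.387 for feb mice, and no ICH mouse was as low as any sham mouse. Dbp over Per2 was 3.35 ± 0.274 for sham, 2.003 ± 0.540 for ICH, and 1.75 ± 0.499 for feb mice, and every sham mouse was above all others. The phase of the clock was not tested, since 1 time per mouse and no hour of collection are known.

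**Figure D3:**
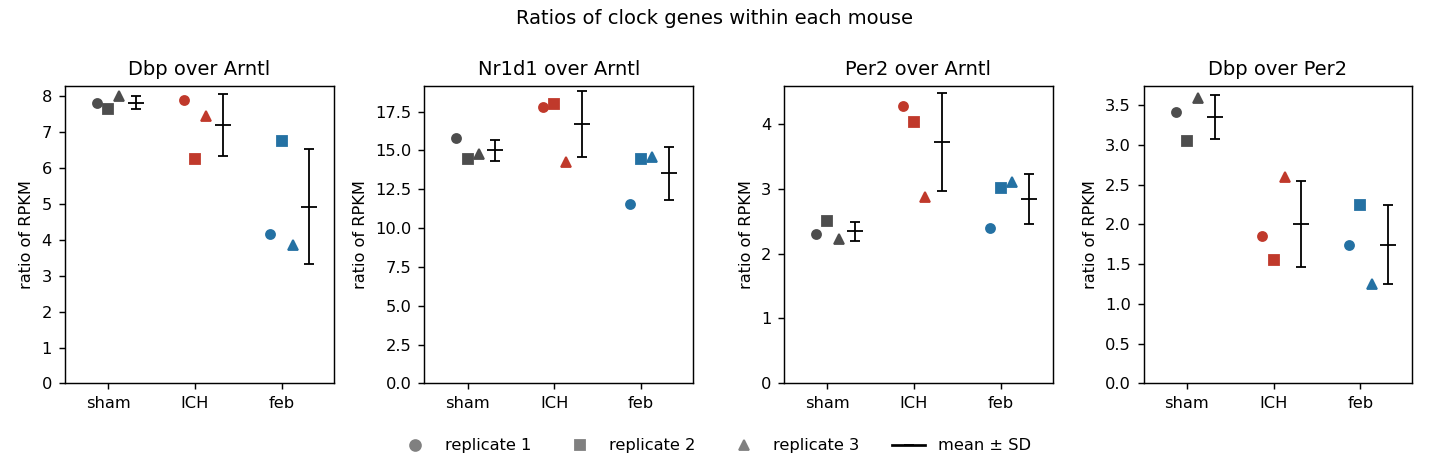
Ratios of RPKM between clock genes in each mouse (vertical axes, from 0), with 1 point per mouse and the mean ± SD of each group in black. Dbp over Arntl is near 8 in the 3 sham mice and near 4 in feb replicates 1 and 3, and Dbp over Per2 is above 3 among sham mice only.

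The genes varied together to different degrees. Over the 9 mice, the Pearson correlation of log2 values with the mean of the standardised values of the 9 genes other than Arntl (each of which is part of that mean) was 0.948 for Per1, 0.840 for Nr1d1, 0.829 for Per2, 0.791 for Tef, 0.694 for Ciart, and 0.595 for Per3. It was 0.526 for Arntl, 0.30 for Nr1d2, -0.0044 for Dbp, and -0.194 for Bhlhe41. These values describe genes measured in the same libraries, and the differences between groups are part of them. That mean was -0.833, 0.0951, and -0.694 among sham mice, 0.711, -0.115, and 0.578 among ICH mice, and 0.357, -0.277, and 0.179 among feb mice, so that in each group replicate 2 lay on the other side of 0 from the other mice. Among 17651 other genes with a mean of at least 1 RPKM, those most like this mean were Gm15573 (Pearson r = 0.982), Zbtb43 (0.964), Pde7a (0.962), Zdhhc21 (0.961), and Pogz (0.956). Those most opposite were Gm10698 (-0.972), Dgcr6 (-0.960), Mtap (-0.958), Slc25a29 (-0.956), and Ddit3 (-0.949). These genes were picked as the extremes of 17651 genes over 9 mice, so their values of r are large by that choice. Gm15573 had only 10 to 29 reads per mouse.

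In the clock, Arntl runs opposite to Dbp and Nr1d1, and Per1 responds to stimuli, so 5 relations were computed across the 9 mice on log2 values with exact permutation tests, adjusted over the 5. Arntl and Dbp had a Pearson r of -0.143 (exact p = 0.707, adjusted p = 0.708) and a Spearman rho of 0.0167 (exact p = 0.982, adjusted p = 0.982), and Arntl and Nr1d1 an r of 0.387 (exact p = 0.298, adjusted p = 0.496) and a rho of 0.267 (exact p = 0.493, adjusted p = 0.651). Without sham replicate 1 and feb replicate 1, the mice farthest from the median of Arntl, r was 0.102 and 0.265. Dbp and Per3 had an r of -0.394 (exact p = 0.295, adjusted p = 0.496) and a rho of -0.250 (exact p = 0.521, adjusted p = 0.651), and r was 0.261 without ICH replicate 3 and feb replicate 3. None of the 5 relations passed adjustment.

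Per1 was set against Fkbp5, a gene induced by glucocorticoids, and Fos, a gene induced by neuronal activity. Fkbp5 was at 3.67, 4.85, and 3.92 RPKM for sham, 6.62, 7.26, and 4.87 for ICH, and 16.0, 4.44, and 21.3 for feb mice, so that 2 feb mice stood apart and feb replicate 2 was at the sham level. Per1 and Fkbp5 had a Pearson r of 0.510 (exact p = 0.172, adjusted p = 0.496) and a Spearman rho of 0.733 (exact p = 0.0311, adjusted p = 0.156). Without ICH replicates 1 and 3, the mice with the highest Per1, r was 0.945. With the group means removed it was 0.454. Fos was at 5.74, 2.91, and 2.86 RPKM for sham, 5.87, 4.64, and 4.61 for ICH, and 2.81, 2.58, and 2.99 for feb mice, and its r with Per1 was 0.142 (exact p = 0.708, adjusted p = 0.708), with a rho of 0.267 (exact p = 0.493, adjusted p = 0.651). Without the same 2 ICH mice, that r was -0.506.

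**Figure D4:**
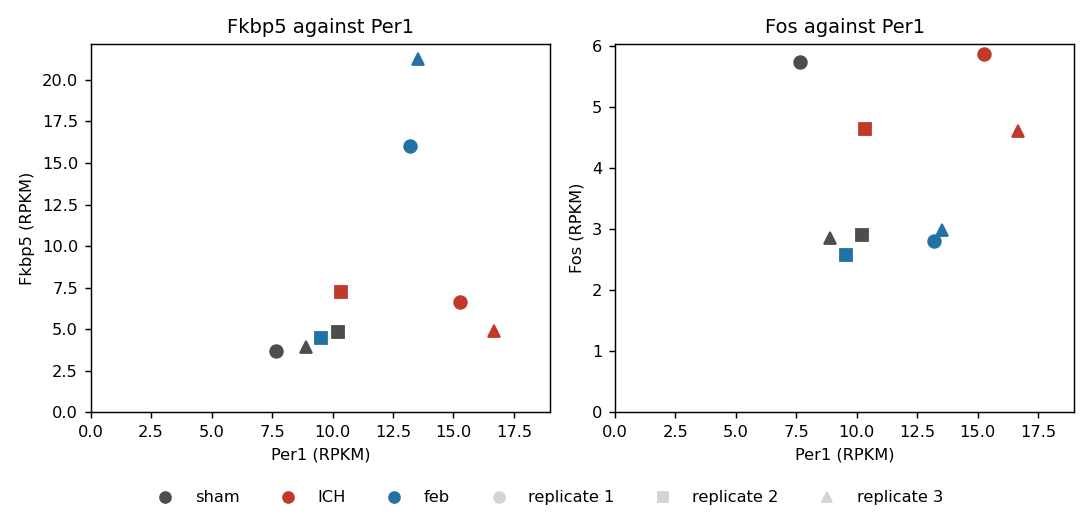
Fkbp5 (left) and Fos (right) in RPKM against Per1 in RPKM, with 1 point per mouse, its color giving the group and its shape the replicate number. Feb replicates 1 and 3 lie far above the others in Fkbp5 at 16.0 and 21.3 RPKM, while ICH replicates 1 and 3 are highest in Per1 without high Fkbp5.

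Other genes of the clock were taken as a list of 20, all of them measured and tested. None was called in any comparison, while 2.53%, 2.43%, and 2.20% of all genes tested were. None of the 20 had an adjusted p under 0.05. At an unadjusted p under 0.05 in limma there were 0 of 20 for ICH against sham, beside 12.3% of all genes. For feb against sham there were 0 of 20, beside 8.54% of all genes. For feb against ICH there was 1 of 20, beside 11.1% of all genes. The 1 gene was Bhlhe40, a repressor related to Bhlhe41, at 13.4, 16.2, and 16.0 RPKM in ICH and 12.1, 13.2, and 11.7 in feb mice. All feb mice were below all ICH mice, and the log2 difference was -0.30 (standard error 0.11, limma adjusted p = 0.399). Under equal medians, eBayes without trend, the replicate block, and voom, and without ICH replicate 2, feb replicate 1, or feb replicate 3, 0 of 20 reached an unadjusted p of 0.05 for feb against ICH, and 2 of 20 did without ICH replicate 3 or feb replicate 2. For ICH against sham the count was 1 with voom, 2 without sham replicate 1 or sham replicate 2, and 1 without ICH replicate 1 or ICH replicate 3. In the comparison of feb with sham it was 1 with equal medians and voom, 3 without sham replicate 2, and 1 without sham replicate 1 or feb replicate 2. These alternatives for the list were chosen after the data were seen. The median log2 difference of the 20 genes was 0.09 for ICH against sham, -0.02 for feb against ICH, and 0.06 for feb against sham, beside 0.08, -0.01, and 0.05 for all genes.

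Clock, the partner of Arntl, was at 8.63 to 9.09 RPKM for sham, 9.31 to 9.56 for ICH, and 8.71 to 9.75 for feb mice. Every ICH mouse was above every sham mouse, but the log2 difference was 0.09 (interval -0.08 to 0.26). Npas2, which can take the place of Clock, was at 3.41, 8.35, and 4.91 RPKM in sham mice and 6.42 to 9.01 in the others, with a log2 difference of 0.58 for ICH against sham (interval -0.05 to 1.21). Cry1 and Cry2, the partners of the Per proteins, had log2 differences of 0.21 and 0.08 for ICH against sham and 0.31 and 0.15 for feb against sham, none at an unadjusted p under 0.05. Nfil3, which competes at the D-box, was at 3.17 to 4.81 RPKM with differences of 0.14, -0.09, and 0.04, and Hlf, the third gene of the Dbp family, at 7.90 to 16.5 RPKM with -0.12, -0.12, and -0.24. Rora, which activates Arntl, had the widest interval for ICH against sham, -1.72 to 0.26 around -0.73, and ranged from 9.14 to 33.4 RPKM.

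**Figure D5:**
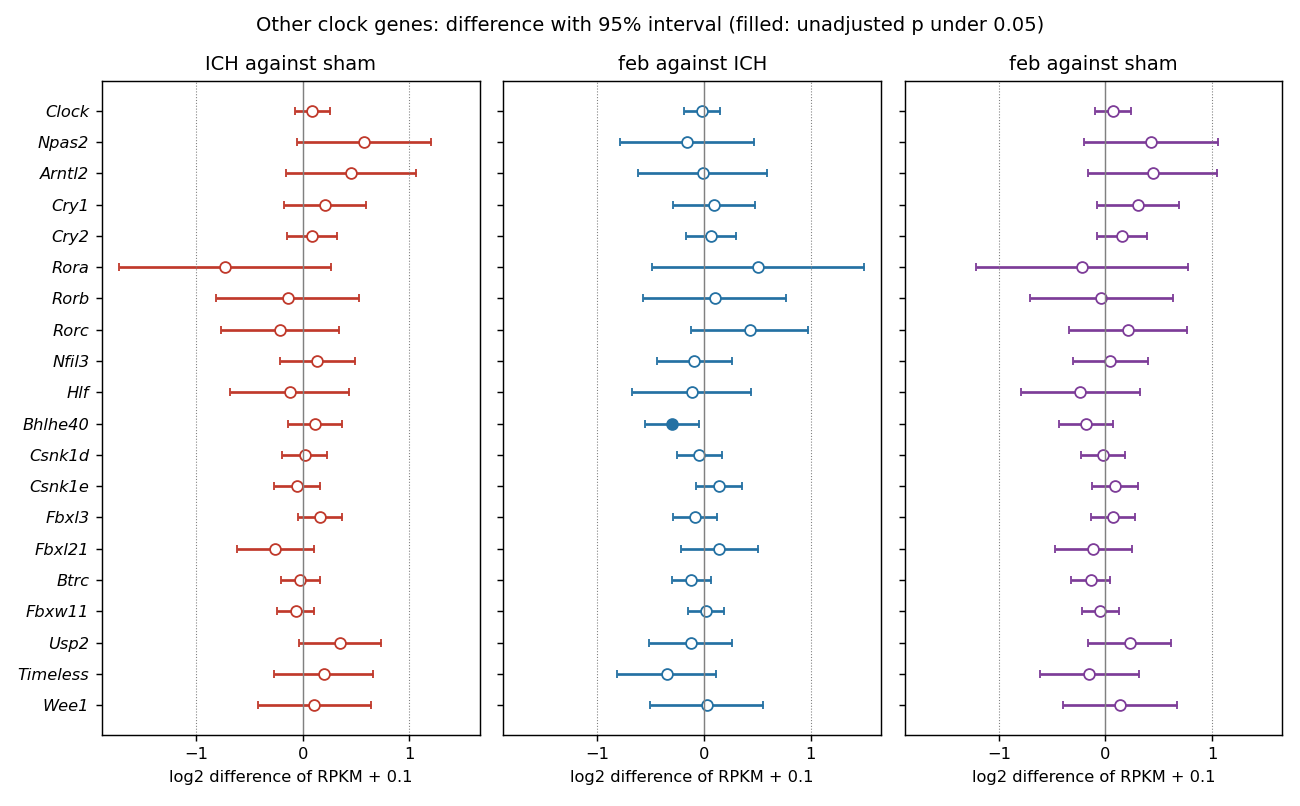
Log2 differences of RPKM + 0.1 for 20 other genes of the clock with 95% intervals from limma, filled where the unadjusted p is under 0.05, with dotted lines at a 2-fold difference. Bhlhe40 in feb against ICH is the only filled point, and the intervals of Rora are the widest.

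Other lists of genes were counted in the same comparisons, and their part in any difference of the clock genes was not tested. Of all genes tested, 2.53% were called for ICH against sham, 2.43% for feb against ICH, and 2.20% for feb against sham. Beside these shares, 1 gene called in a short list says little. For ICH against sham, markers of cortical excitatory neurons were called higher in 7 of 8, with summed levels of 35.5 to 68.2 RPKM in sham and 83.4 to 168 in ICH mice, and markers of thalamus and midbrain were called lower in 4 of 8 (118 to 170 and 23.4 to 119). Genes induced by neuronal activity were called higher in 3 of 10 (39.2 to 54.3 and 69.9 to 114), and glucocorticoid targets in 1 of 12 (117 to 137 and 147 to 152). For feb against ICH, activity genes were called lower in 2 of 10 (46.5 to 49.9 in feb mice), and choroid plexus markers in 8 of 8 (458 to 967 in ICH and 30.6 to 88.4 in feb mice). Markers of red blood cells were called lower in 4 of 5 (26.7 to 124 in ICH and 17.1 to 21.6 in feb mice). Cortical markers were called lower in 3 of 8 (74.5 to 96.3 in feb mice), thalamus and midbrain markers higher in 2 of 8 (60.0 to 157), and glucocorticoid targets higher in 2 of 12.

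For feb against sham, glucocorticoid targets were called higher in 6 of 12. Their sums were 117 to 137 in sham and 162 to 304 in feb mice. Feb replicate 2 had the lowest of the feb sums and the lowest Per1 of its group. The order was different in the sham and ICH groups. ICH replicate 2 had the lowest Per1 of its group and the highest sum, though the ICH sums were close together (147 to 152). Sham replicate 2 had the highest Per1 of its group and the lowest sum (117). Genes of high level weigh most in these sums, among them Mt2, at 47.3, 37.1, and 48.0 RPKM in sham mice. Fkbp5 was highest in replicate 2 of both groups, at 4.85 in sham and 7.26 in ICH mice. How Per1 relates to these sums was not tested. For feb against sham, cortical markers were called higher in 2 of 8, and thalamus and midbrain markers and activity genes in none. Choroid plexus markers were called lower in 7 of 8 and red blood cell markers in 3 of 5. Genes that depend on temperature, among them Cirbp, were called in 0 of 8 in each comparison. For feb against sham, 2 of these 8 genes, Cirbp and Rbm3, were higher at an unadjusted p under 0.05 in limma, beside 8.54% of all genes. The list also holds heat shock genes, and no common direction was set for it. Of the 8 differences, 5 were positive and 3 negative, with Hsph1 at -0.27 and Hspa1b at 0.51. Cirbp was at 9.95, 9.23, and 11.1 RPKM in sham and 15.7, 11.6, and 20.3 in feb mice. Its log2 difference was 0.62 (limma adjusted p = 0.565), and that of Rbm3 was 0.72 (adjusted p = 0.565). Markers of striatal neurons were called in 0 of 6 in every comparison, astrocyte markers in 0 of 5, neuronal markers in 0 of 4, and cerebellar granule cell markers in 0 of the 3 of 6 that were tested. Striatal sums differed widely within groups, at 38.8, 295, and 106 RPKM in sham, 131 to 299 in ICH, and 93.6 to 229 in feb mice. All 6 striatal differences were positive for ICH against sham, with a median of 1.04. The cerebellar genes not tested, Gabra6, Cbln3, and Fat2, were at 0.748, 1.63, and 0.979 RPKM in sham replicate 1. Each was under 0.1 RPKM in every other mouse. Whether the tissue taken differed between mice was not tested. Markers of the suprachiasmatic nucleus, the master clock of the brain, were called higher in 1 of 7 for ICH against sham. In the other comparisons 0 of 7 were called. The gene called was Vip, at 0.157 to 0.697 RPKM in sham and 0.494 to 1.48 in ICH mice. Its log2 difference was 1.36 (limma adjusted p = 0.381), and the groups overlapped. Avp, another of these markers, ranged from 0.0587 to 57.8 RPKM with mice of each group at both low and high levels. No gene of these lists was at 0 in every mouse.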

How the data were processed

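Brain RNA of 9 mice was sequenced after rRNA depletion, with a stranded kit that marks cDNA molecules by UMIs. The authors trimmed reads with Trimmomatic 0.36, collapsed reads sharing a UMI, aligned them to GRCm38, used featureCounts (Subread 1.5.1) to count exon reads, and deposited RPKM values, 1 column per mouse. The strand setting and the annotation release are not given in the sources used here. The authors used edgeR 3.12.1 for differential expression, which was not run here. The main test was chosen for the deposited RPKM values, and the reads recovered from them were tested with voom as an alternative.

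The whole reads behind the RPKM values were recovered (100% of values within 0.05 of a whole number) and gave 23065757 to 29538009 reads per mouse. The deposited RPKM values were tested with limma 3.58.1 in R 4.3.3 (lmFit, eBayes with trend) on log2(RPKM + 0.1), keeping the 29025 genes that reached 0.1 RPKM in 3 or more mice. Differences on this scale understate those of low genes. The procedure was tested on simulated data. Tables, exact tests, and motif searches used scipy 1.17.1, pandas 2.3.3, and numpy 2.4.6 under Python 3.11.15.

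The members and the gene lists were chosen with earlier results of these data known. Named genes were all 10 members, the genes of the lists given, those overlapping a member, and the 5 genes most and least like the members' mean, a mean taken without Arntl. Alternatives were equal medians, quantile normalization, pseudocounts of 0.01 and 1, a filter at 1 RPKM or none, 2 groups only, eBayes without trend, a block for the replicate number, voom on recovered reads with TMM, and each mouse left out. Same-numbered mice are not described as paired.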

Additional observations from a re-analysis of the deposited data

How the results depend on the processing

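No clock gene was called under any of the 19 alternatives run in any comparison. Counts at an unadjusted p under 0.05 moved more. For ICH against sham the count was 4, and 2 with equal medians, with eBayes without trend, and with the replicate block, 3 with voom, and from 1 to 4 with a mouse left out (1 without sham replicate 1 or ICH replicate 3, 2 without sham replicate 3 or ICH replicate 1). For feb against ICH it was 0, and 0 to 2 with a mouse left out (2 without ICH replicate 2, 1 without feb replicate 2). For feb against sham it was 1, and 2 with equal medians, quantile normalization, 2 groups only, and voom, and from 1 to 4 with a mouse left out (4 without feb replicate 2, 3 without sham replicate 2 or ICH replicate 2, 2 without ICH replicate 3). For any difference among the 3 groups, counted under these alternatives only after the data were seen, it was 2, and 1 with equal medians and without trend, and 1 to 4 with a mouse left out. The cause was not tested. Deviations of same-numbered mice correlated between -0.127 and 0.0194, and a mouse correlated best with its own number in 0 of 18 choices. These values show no pairing by replicate number, but deviations from the means of 3 mice cannot exclude one.

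The values that changed sign were small and had no unadjusted p under 0.05. With equal medians, Arntl for ICH against sham was -0.062, and Nr1d1 and Bhlhe41 for feb against sham were -0.0092 and -0.054. Arntl for ICH against sham was also -0.068 with quantile normalization and -0.019 with voom. With a mouse left out, values for ICH against sham ranged from -0.061 to 0.14 for Arntl, -0.072 to 0.019 for Bhlhe41, -0.22 to 0.069 for Dbp, and -0.11 to 0.093 for Nr1d2. Those for feb against ICH ranged from -0.17 to 0.19 for Ciart, -0.0037 to 0.13 for Bhlhe41, -0.16 to 0.043 for Tef, and -0.015 to 0.18 for Per3, and Bhlhe41 for feb against sham from -0.018 to 0.096. The r of Arntl with Dbp was 0.0022 with quantile normalization and 0.382 with group means removed, and that of Per1 with Fos -0.164 with group means removed. Every clock gene had at least 268 reads in each mouse, and counting error was not compared with the spread between mice.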
